A study of Mus musculus with 12 samples.

Results

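The acid-sensing ion channel genes Asic1, Asic2, Asic3 and Asic4 were followed across 12 libraries of total RNA from the mouse dentate gyrus, the hippocampal field made mostly of granule cells. They are 4 of the 52636 genes counted, were taken by symbol, and all 4 had enough reads to be tested in every comparison. The family was chosen because Asic4 was lower in KO than in WT and higher with the Fst vector than with the GFP vector. Those Asic4 values are therefore given as a description without a test, while its paralogs Asic1, Asic2 and Asic3 were tested in the same fits over all genes.

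All mice were C57BL/6, and each of 4 groups had 3 libraries. KO mice lacked Fst, the gene of follistatin, which captures secreted activins before they can signal, and WT mice were wild type. The Fst vector group is labelled OE+AAV9-CB::Fst, an adeno-associated virus vector carrying Fst in mice called overexpressing, and its genotype is not stated. The GFP vector group is labelled KO+AAV9-CB::GFP, so these mice lacked Fst and received a vector for green fluorescent protein. The sources used here do not give the age of the mice, the cells that the knockout covers or how the vector was delivered. Libraries are named by the letters of their titles, M or F with a number. The design text can be read as 3 mice per group or as pools of mice. A p-value here therefore sets a difference against the spread among libraries, part of which may be technical. Libraries titled M and F came from different mice, by the sex genes given below.

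Acid-sensing ion channels are sodium channels of the DEG/ENaC family that open when the fluid outside the cell turns acid. Subunits assemble as trimers, and in neurons of the brain Asic1 and Asic2 products form the main proton-gated channels, which act at dendritic spines and in injury by acidosis. The Asic3 product is best known from sensory neurons of the dorsal root ganglia, and the Asic4 product carries no proton-gated current on its own and lowers the surface level of other subunits when expressed with them.

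Total counts ran from 8081824 to 11331337 per library, and values below are CPM, counts scaled to a common library total, unless named otherwise. Fst itself had 2 to 4 counts in KO libraries, against 33 to 51 in WT libraries, and 1497 to 2078 counts with the Fst vector, against 0 or 1 with the GFP vector. Xist and Ddx3y matched the sex in the title in all 12 libraries, whereas the descriptions give the other sex for 4 of them. Genes annotated as ribosomal RNA took 0.0115 to 0.0209% of counts in KO M2, WT F1, Fst vector M2, Fst vector F and GFP vector M2, and under 0.001% in the 7 others. All 11 markers of mature granule cells were detected, with a summed level of 1759 to 2593 CPM per library. The GFP vector F library stood apart, with a mean Spearman correlation of 0.964 with the other 11 libraries, against 0.971 to 0.984 for each of those.

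In the annotation of GRCm38, Asic4 lies on chromosome 1 at 75450436 to 75474343 on the plus strand, with 2727 bases of merged exons. Asic1 lies on chromosome 15 at 99670368 to 99701130, also on the plus strand. Asic2 spans chromosome 11 from 80880169 to 81968457 on the minus strand, and Asic3 spans chromosome 5 from 24413392 to 24417835 on the plus strand. No transcripts of any pair of these genes shared an exact run of more than 32 bases, and their longest open reading frames, of 530 to 563 codons, encoded proteins 49.5 to 58.7% identical. The opposite-strand gene Gm37264 overlaps exons of Asic4 but had 60 counts over all 12 libraries and at most 15 in any of them. The 6 annotated genes that overlap Asic2 had 1 to 14 counts each in all.

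Per length, Asic2 was the most abundant family member on average and Asic3 the least. RPKM, CPM per kilobase of merged exons, averaged 14.3 ± 3.21 for Asic2, 10.7 ± 7.52 for Asic4, 6.68 ± 1.18 for Asic1 and 0.663 ± 0.249 for Asic3 (SD, n = 12 libraries of all groups). Asic3 was lowest in 12 of 12 libraries, and Asic2 stood above Asic1 in 11 of 12. Asic4 stood above Asic2 in 3 libraries, which were the 3 of the Fst vector group. Asic4 stood above Asic1 in 8 libraries with merged exons and in 5 with the length of the longest protein-coding transcript, so the order of this pair depended on the length used. The SD of Asic4 is larger than its gap to either Asic2 or Asic1, so its place in this average order is not fixed.

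**Figure D1:**
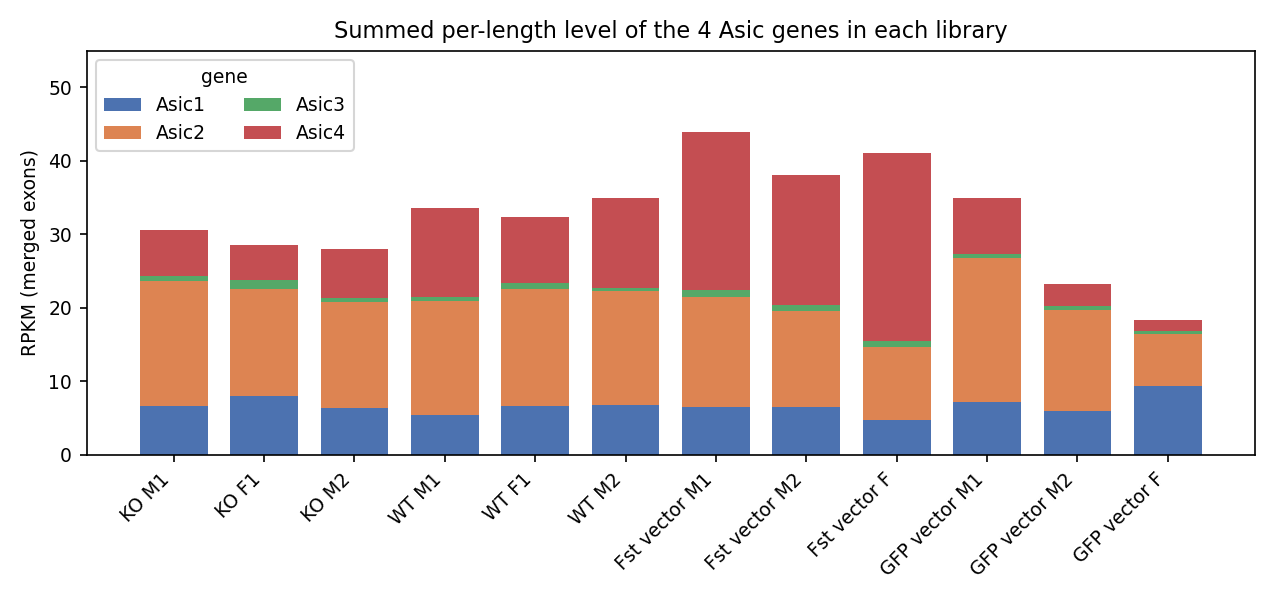
Stacked bars give the RPKM of Asic1, Asic2, Asic3 and Asic4 in each of the 12 libraries, from merged exon lengths, with KO left of WT and Fst vector left of GFP vector. The Asic4 segment is the tallest in the 3 Fst vector libraries only, and Asic1 has the tallest segment in GFP vector F only.

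The share of Asic4 in the summed RPKM of the family followed the groups by which it was chosen. It was 20.4 ± 3.61% in KO and 32.8 ± 4.57% in WT, and 52.6 ± 8.61% with the Fst vector and 14.3 ± 6.71% with the GFP vector (SD, n = 3 each). The summed RPKM of the 4 genes was 28.0 to 30.6 in KO libraries and 32.4 to 34.9 in WT libraries, and 38.2 to 43.9 in Fst vector libraries and 18.4 to 34.9 in GFP vector libraries. In GFP vector F, Asic1 led the family with 50.8% of the sum, while Asic2, at 38.7%, came second.

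The first comparison asks how the dentate gyrus without Fst differs from wild type. Asic4 was at 17.1, 13.1 and 18.3 CPM in KO M1, F1 and M2, against 33.1, 24.3 and 33.1 CPM in WT M1, F1 and M2. Every KO library lay below every WT library, and in both groups F1 was the lowest. The KO mean was 0.535 times the WT mean, and the log2 change was -0.89 ± 0.128 (SE). In the libraries with less ribosomal RNA, KO M1, KO F1, WT M1 and WT M2, it was -1.11 ± 0.138, and the others are 1 of each group. In these bulk samples fewer cells that express Asic4 and less Asic4 RNA per cell cannot be told apart.

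Asic1, the main proton-gated subunit, and Asic2, its partner, showed no such separation. Asic1 had 38.1, 46.1 and 37.0 CPM in KO M1, F1 and M2, against 31.1, 38.2 and 38.7 CPM in WT M1, F1 and M2. Asic2 had 72.4, 62.1 and 61.6 CPM in the KO libraries, against 66.5, 68.2 and 66.2 CPM in the WT libraries. For both genes the groups overlapped, and the 3 WT values of Asic2 lay within a narrow range. Asic3 had 1.72, 2.998 and 1.02 CPM in KO libraries, from 10 to 28 counts, against 1.15, 1.93 and 1.24 CPM in WT libraries, from 11 to 18 counts. Its groups overlapped too, and its highest value was KO F1.

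None of the 3 paralogs passed edgeR's quasi-likelihood test between KO and WT at an adjusted p of 0.05, where 0.0268% of the 14919 genes tested passed, 4 genes, with 889 at an unadjusted p under 0.05. The log2 change was 0.18 ± 0.101 for Asic1 (edgeR, adjusted p = 0.896), -0.02 ± 0.0754 for Asic2 (adjusted p = 0.991) and 0.43 ± 0.389 for Asic3 (adjusted p = 0.947). Asic4 was the 1 member of 4 whose groups did not overlap, against 11.0% of all genes tested, and that separation is what it was chosen for. The sign of Asic3 turned without KO F1, at a log2 change of -0.06. In libraries titled M alone, which leave out both KO F1 and WT F1, it was 0.20. That of Asic1 was 0.07 without KO F1 and 0.09 without WT M1. The sign of Asic2, close to 0, turned without KO F1, KO M2 or WT F1.

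**Figure D2:**
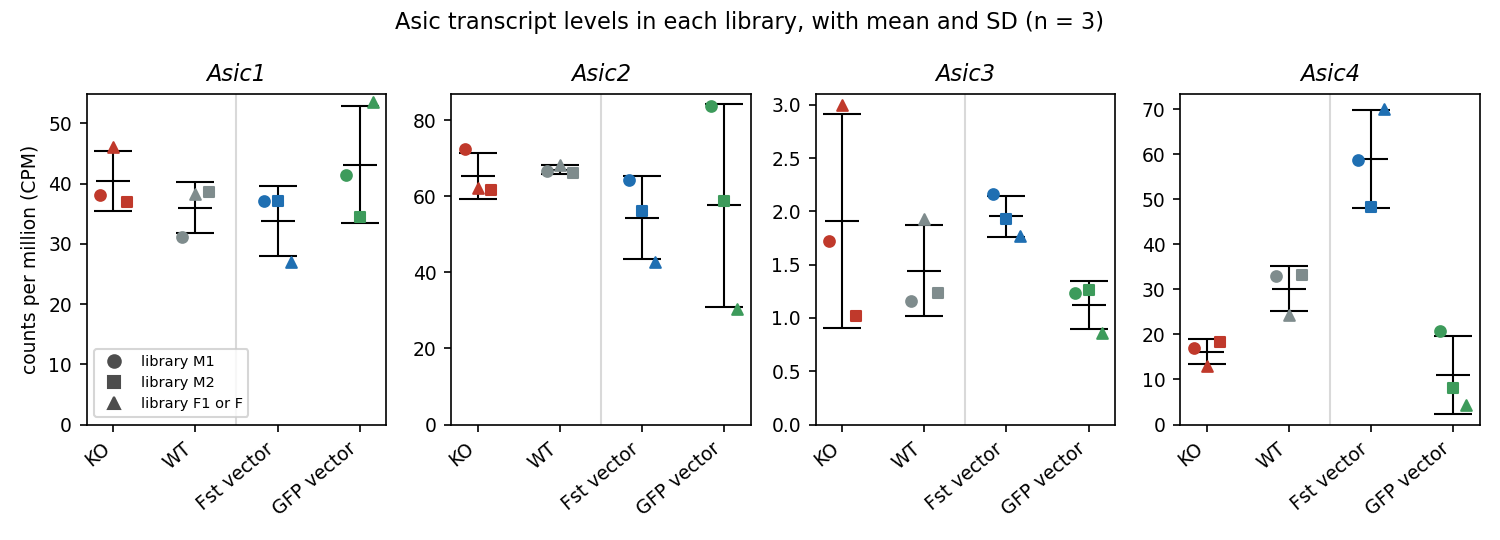
CPM of Asic1, Asic2, Asic3 and Asic4 in each library of the 4 groups, each gene on its own linear axis from 0; points are libraries, with circles, squares and triangles for M1, M2 and F1 or F, and bars give the mean and SD of 3 libraries. Asic4 is the gene with separate groups on both sides, at 13.1 to 18.3 CPM in KO and 24.3 to 33.1 CPM in WT, and at 48.3 to 70.1 CPM with the Fst vector and 4.29 to 20.7 CPM with the GFP vector.

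The second comparison asks how the vector for Fst differs from the vector for GFP. Asic4 was at 58.6, 48.3 and 70.1 CPM in Fst vector M1, M2 and F, against 20.7, 8.08 and 4.29 CPM in GFP vector M1, M2 and F. The groups did not overlap, and the lowest Fst vector library was 2.34 times the highest GFP vector library. The ratio of means was 5.36 and the log2 change 2.40 ± 0.55 (SE). The GFP vector libraries differed widely among themselves, with a coefficient of variation of 77.8%, against 18.5% in the Fst vector group. Without GFP vector M1, the highest of its group, the log2 change was 3.22. In the 3 libraries with less ribosomal RNA, Fst vector M1, GFP vector M1 and GFP vector F, it was 2.22 ± 0.969.

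Asic1 had 37.1, 37.2 and 27.0 CPM in Fst vector M1, M2 and F, against 41.5, 34.4 and 53.6 CPM in GFP vector M1, M2 and F. Its lowest and highest values of all 12 libraries were thus those of the libraries titled F. Asic2 had 64.2, 56.2 and 42.7 CPM in the Fst vector libraries, against 83.6, 58.8 and 30.3 CPM in the GFP vector libraries. In both groups M1 was highest and F lowest for Asic2, and the groups overlapped. Asic3 had 2.16, 1.92 and 1.77 CPM with the Fst vector, from 16 to 22 counts, against 1.24, 1.27 and 0.859 CPM with the GFP vector, from 9 to 13 counts. The groups of Asic3 did not overlap, as was so for Asic4 and for 16.5% of all genes tested.

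None of the 3 paralogs passed edgeR's test here either, where 0.0798% of the 15034 genes tested passed, 12 genes, with 1429 at an unadjusted p under 0.05. The log2 change was -0.39 ± 0.199 for Asic1 (edgeR, adjusted p = 0.603), -0.12 ± 0.357 for Asic2 (adjusted p = 0.949) and 0.77 ± 0.348 for Asic3 (adjusted p = 0.537). Same-named libraries were also taken as pairs in a replicate block, although no label states a pairing. With it 141 genes passed and the paralogs again did not, with log2 changes of -0.38, -0.03 and 0.76 for Asic1, Asic2 and Asic3. The sign of Asic2 turned without GFP vector M1 or without Fst vector F. The log2 change of Asic1 ran from -0.54 without GFP vector M2 to -0.20 without GFP vector F. In libraries titled M alone it was -0.06, and that of Asic4 was 1.87.

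**Figure D3:**
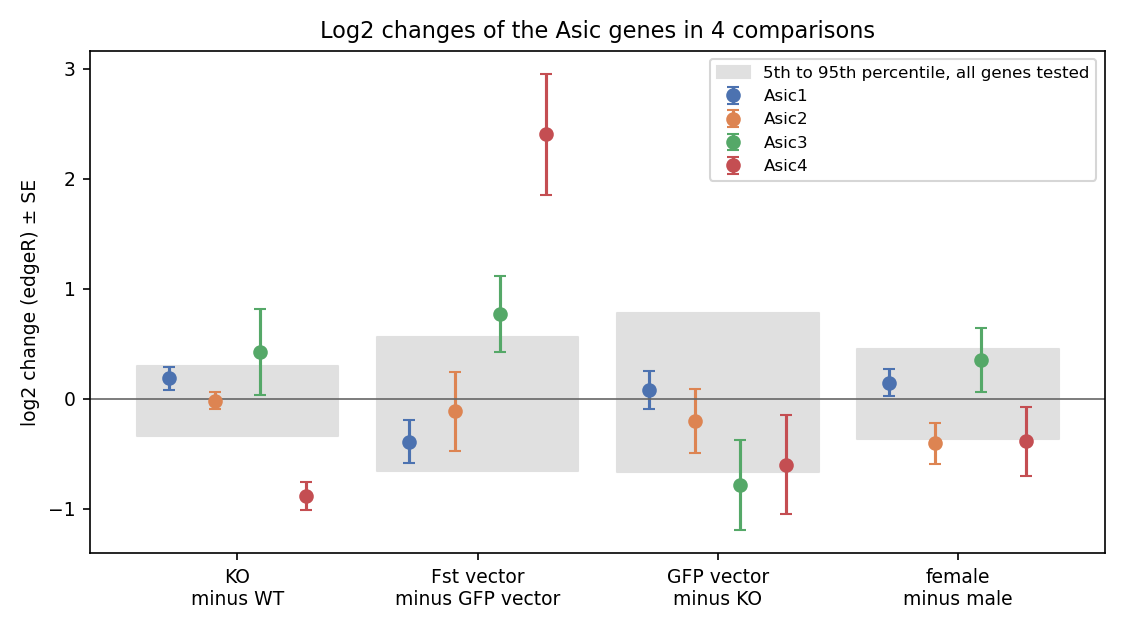
Log2 changes of the 4 genes from edgeR with bars of 1 SE, for KO minus WT, Fst vector minus GFP vector, GFP vector minus KO and female minus male; grey bands run from the 5th to the 95th percentile of all genes tested in each comparison. Asic4 lies outside the band at -0.89 for KO minus WT and at 2.40 for Fst vector minus GFP vector, the contrasts it was chosen on, while Asic1 and Asic2 lie inside it in both and Asic3 lies above it in both. Asic3 lies below the band at -0.79 for GFP vector minus KO, and Asic2 at -0.41 and Asic4 at -0.39 lie below it for female minus male.

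GFP vector mice and KO mice both lacked Fst by their labels, and they differ in the vector and in the table they were counted in, which cannot be told apart. Asic4 overlapped between them, at 4.29 to 20.7 CPM with the GFP vector and 13.1 to 18.3 CPM in KO, with a log2 change of -0.60 ± 0.451 (SE). This change was -1.41 without GFP vector M1 and -0.21 without GFP vector F. Asic1, Asic2 and Asic3 overlapped as well, and none passed in 1 fit of all 12 libraries, where 3.58% of the 15632 genes tested did. Their log2 changes were 0.08 ± 0.171 (edgeR, adjusted p = 0.824), -0.21 ± 0.29 (adjusted p = 0.709) and -0.79 ± 0.41 (adjusted p = 0.265). For Asic1 and Asic2 the sign turned without GFP vector F. The log2 change of Asic3 was -0.32 without KO F1 and -0.13 in males. The number of genes passing depended on single libraries: it was 559 with all 12, but 7, 20 and 10 without KO M1, F1 or M2 and 11 in males.

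Set side by side across the tables, the Fst vector group exceeded WT in Asic4, with means of 59.0 ± 10.9 CPM and 30.2 ± 5.04 CPM (SD, n = 3 each), a ratio of 1.96. Asic2 averaged 54.4 ± 10.9 CPM with the Fst vector and 67.0 ± 1.08 CPM in WT. These levels come from separate tables and were not tested.

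The sex of the mice was used by no part of the choice of members, so all 4 genes were tested for it. Libraries titled F averaged 27.9 ± 29.3 CPM of Asic4 (SD, n = 4) and libraries titled M 29.6 ± 17.1 CPM (SD, n = 8), with ranges that overlapped across groups. With group as a term in edgeR, the log2 change female minus male was -0.39 ± 0.314 for Asic4 (adjusted p = 0.677), 0.15 ± 0.125 for Asic1 (adjusted p = 0.69), -0.41 ± 0.184 for Asic2 (adjusted p = 0.479) and 0.35 ± 0.29 for Asic3 (adjusted p = 0.676). None of the 4 passed, against 0.0512% of the 15632 genes tested, or 8 genes, with 1629 at an unadjusted p under 0.05. With no filter on low counts, Asic2 and Asic4 did pass (edgeR, adjusted p = 0.00213 and 0.0427), but so did 792 of 29564 genes, against 8 in the main fit. Single libraries weighed heavily here. With each left out in turn, the log2 change of Asic4 ran from -0.75 without Fst vector F to -0.11 without GFP vector F, and that of Asic1 from 0.01 without GFP vector F to 0.33 without Fst vector F. That of Asic2 ran from -0.58 without WT F1 to -0.17 without GFP vector F, and that of Asic3 from 0.02 without KO F1 to 0.56 without GFP vector F.

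Asic2 had the largest change by sex of the 4 in the vector table, at -0.85 ± 0.211 there (edgeR, adjusted p = 0.172), against -0.02 ± 0.0774 in the KO and WT table (adjusted p = 0.971). The difference between the tables was -0.83 ± 0.239 and did not pass over all genes (edgeR, adjusted p = 0.198). Asic3 had log2 changes of opposite sign, -0.35 ± 0.387 in the vector table and 0.94 ± 0.361 in the KO and WT table, and their difference did not pass (edgeR, adjusted p = 0.336). Asic4 was at -0.38 ± 0.582 in the vector table and at -0.42 ± 0.11 in the KO and WT table (edgeR, adjusted p = 0.838 and 0.089).

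The libraries titled F of the vector table also differed in Bdnf and Calb1, which were picked after their values were seen. Bdnf, a neurotrophin induced by activity, stood at 192 CPM in Fst vector F and 208 CPM in GFP vector F, against 54.6 to 125 CPM in the other 10 libraries. Calb1, the calcium buffer calbindin of mature granule cells, stood at 93.9 CPM in Fst vector F and 67.8 CPM in GFP vector F, against 135 to 243 CPM in the others. Arc, an activity-induced gene, was likewise highest there, at 64.7 CPM in Fst vector F and 100.4 CPM in GFP vector F, against 15.7 to 33.6 CPM in the others. So was Inhba, the gene of an activin subunit, at 36.9 CPM in Fst vector F and 90.2 CPM in GFP vector F, against 6.97 to 17.8 CPM in the others. Fos and Prox1 did not follow this. Fos, an early response gene, stood at 2.21 CPM in Fst vector F and 4.96 CPM in GFP vector F, within the 1.85 to 7.62 CPM of the others. Prox1, the transcription factor of granule cell identity, was the highest of its vector group in each, at 328 and 367 CPM. Asic2 was lowest of all 12 in these same libraries, whereas Asic4 was highest of all in Fst vector F and lowest of all in GFP vector F. Within the GFP vector group, Asic4 took the order M1, M2, F from high to low, Calb1 took the same order at 234, 135 and 67.8 CPM, and Bdnf took the opposite order at 73.4, 125 and 208 CPM. The part of these differences in the Asic levels was not tested.

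In the mouse brain Asic4 is known from oligodendrocyte precursors and from interneurons, and the markers of these cells were summed per library. For the 10 precursor markers the sum was 207 to 231 CPM in KO and 214 to 230 CPM in WT, and 230 to 262 CPM with the Fst vector and 213 to 287 CPM with the GFP vector. For the 14 interneuron markers matched it was 776 to 914 CPM in KO and 847 to 937 CPM in WT, and 834 to 999.9 CPM with the Fst vector and 774 to 897 CPM with the GFP vector. The groups overlapped in both sums, and no marker of either list passed edgeR's main test between KO and WT or between the vectors. Pdgfra of the precursor list and Gad2, Lhx6, Adarb2 and Reln of the interneuron list lay lower in every KO library than in WT. Npy lay higher in every KO library, and the other genes of both lists overlapped, beside 11.0% of all genes without overlap. With the replicate block Reln passed there at -0.37 ± 0.0774 (edgeR, adjusted p = 0.0336), beside 23 of the 14919 genes tested. Summed mature granule cell markers overlapped too, at 2404 to 2579 CPM in KO and 2422 to 2543 CPM in WT, and at 2265 to 2404 CPM with the Fst vector and 1759 to 2593 CPM with the GFP vector.

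Of the 16 marker sums, 2 did not overlap between KO and WT and 2 did not overlap between the vectors, or 12.5% in each comparison, beside the 11.0% and 16.5% of all genes given above. The 8 Cajal-Retzius markers summed to 122 to 131 CPM in KO and 154 to 165 CPM in WT, and the 8 newborn neuron markers to 458 to 477 CPM in KO and 486 to 522 CPM in WT. The 8 markers of mature oligodendrocytes summed to 1520 to 1823 CPM with the Fst vector and 1140 to 1333 CPM with the GFP vector, and the 6 of CA1 pyramidal cells matched to 59.2 to 67.1 CPM and 71.97 to 79.8 CPM in the same order. No gene of these 4 lists passed edgeR's main test in the comparison concerned. Between KO and WT all 7 newborn neuron markers tested had a negative log2 change, where 49.7% of all genes were positive. An unadjusted p under 0.05 was found for 3 of these 7 and for 4 of 7 Cajal-Retzius markers tested, beside 5.96% of all genes (edgeR). The 3 were Dcx at -0.41 ± 0.114, Igfbpl1 at -1.14 ± 0.311 and Draxin at -1.41 ± 0.399 (edgeR, adjusted p = 0.326, 0.301 and 0.36). Reln, which is also of the Cajal-Retzius list, passed between KO and WT with the replicate block, as given above. With the replicate block between the vectors, 3 markers of the 16 lists passed, beside 141 of the 15034 genes tested. They were Fibcd1 of the CA1 list, which fell by 2.26 ± 0.202 on the log2 scale (edgeR, adjusted p = 0.00661), Dsp of the mature granule cell list, which fell by 1.48 ± 0.198 (adjusted p = 0.0286), and Lamp5 of the neocortex list, which rose by 0.97 ± 0.163 (adjusted p = 0.0475). In GFP vector minus KO, 8 markers passed, beside 3.58% of all genes tested there. The lists that held them had 8 to 11 genes tested each. C1ql1 of the precursor list rose by 1.02, Cnp and Mobp of the mature oligodendrocyte list by 0.46 and 0.42, C1qa and C1qb of the microglia list by 0.98 and 0.95, and Aebp1 of the meningeal list by 1.57 on the log2 scale. Rfx3 of the mature granule cell list fell by 0.59 and P2ry12 of the microglia list fell by 0.62. Each had an adjusted p of 0.025 to 0.0442 in edgeR and passed in 4 to 7 of 12 fits that left out a library. No marker list had a gene at 0 in all 12 libraries, and the part of these sums in the Asic4 levels was not tested.

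Genes beside Asic4 on chromosome 1 were looked at next. Of the 9 protein-coding genes within 100 kb, 8 were tested and none passed in KO minus WT or in Fst vector minus GFP vector. Between KO and WT their log2 changes ran from -0.12 to 0.11. Between the vectors the largest was that of Inha, the inhibin alpha subunit that pairs with activin subunits, at 77.5 ± 5.35 CPM with the Fst vector and 46.9 ± 10.5 CPM with the GFP vector (SD, n = 3 each), a log2 change of 0.69 ± 0.171 (edgeR, adjusted p = 0.244). Obsl1, a cytoskeletal adaptor, had a log2 change of 0.49 ± 0.172 (edgeR, adjusted p = 0.421), and the anion exchanger gene Slc4a3 had 0.41 ± 0.177 (adjusted p = 0.521). With the replicate block Inha was the 1 neighbour of 8 to pass, at 0.71 ± 0.12 (edgeR, adjusted p = 0.0488), beside 141 of the 15034 genes tested. Tmem198, at 174 ± 39.7 CPM with the GFP vector and 103 ± 7.83 CPM in KO, was the 1 neighbour that rose in GFP vector minus KO, by 0.74 ± 0.168 on the log2 scale (edgeR, adjusted p = 0.0379), where 3.58% of all genes passed. Its adjusted p was 0.0113 to 0.144 with a library left out, and it passed in 4 of 12 such fits.

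**Figure D4:**
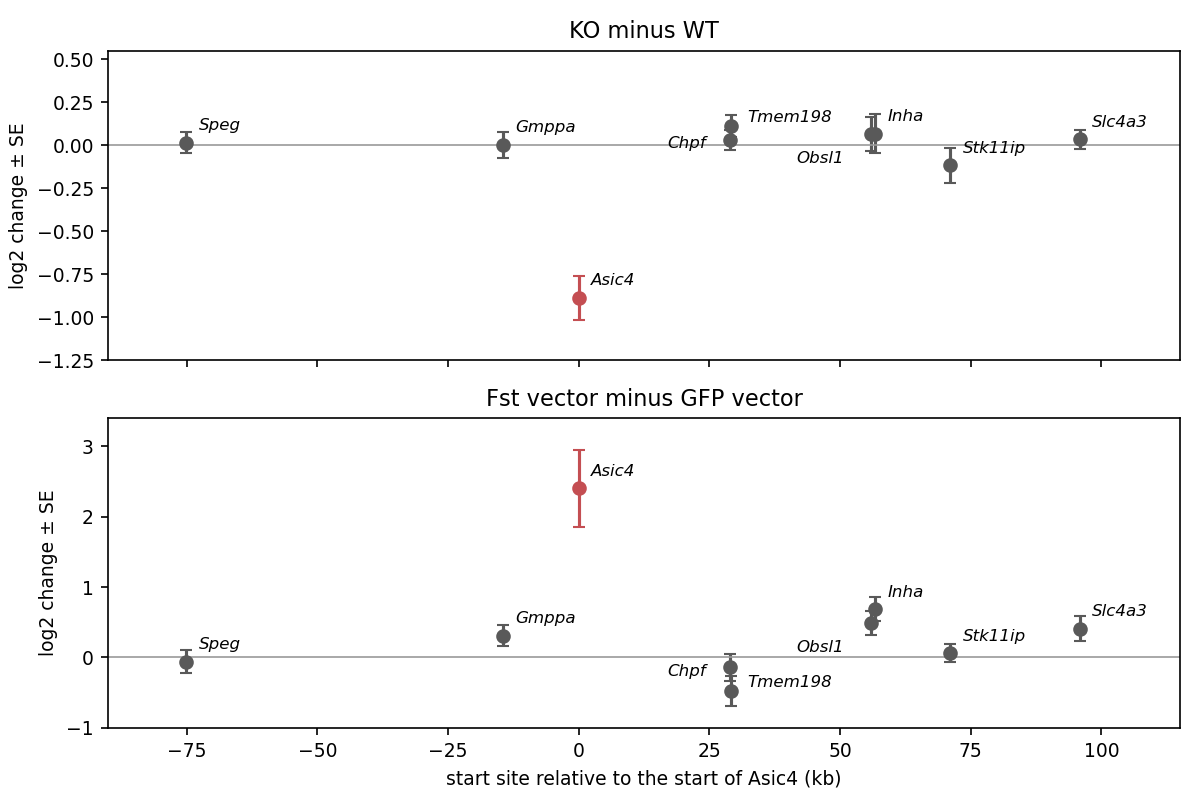
Log2 change with bars of 1 SE for Asic4 and the 8 tested protein-coding genes within 100 kb, against the distance of their start sites from that of Asic4 in kb; the upper panel is KO minus WT and the lower panel Fst vector minus GFP vector, on different vertical scales. Asic4 lies apart at -0.89 above and 2.40 below, while its neighbours lie between -0.12 and 0.11 above and between -0.48 and 0.69 below.

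The genes with levels most like those of Asic4 were Ramp3, Igsf1, Tekt5, Abca8a, Trmt9b and Ngb. Likeness was the root mean square difference of log2(CPM + 0.5) over the 12 libraries, each gene centred on its own mean, among 11642 genes with a mean of at least 5 CPM, and it was 0.43 for Ramp3 and 0.52 to 0.60 for the other 5, against 1.09 for Asic4 around its own mean. Ramp3, a partner of the calcitonin receptor family, averaged 4.12 ± 1.47 CPM in KO and 5.82 ± 1.45 CPM in WT, and 12.2 ± 4.64 CPM with the Fst vector and 3.24 ± 2.89 CPM with the GFP vector (SD, n = 3 each). Igsf1, an immunoglobulin superfamily membrane protein, averaged 16.8 ± 3.63 CPM in KO and 21.5 ± 4.28 CPM in WT, and 30.3 ± 5.86 CPM with the Fst vector and 12.6 ± 9.30 CPM with the GFP vector. Ngb, neuroglobin, averaged 7.05 ± 0.648 CPM in KO and 7.01 ± 0.807 CPM in WT, and 16.4 ± 8.80 CPM with the Fst vector and 3.93 ± 3.86 CPM with the GFP vector. Centred within each table instead, Ramp3, Igsf1, Tekt5, Trmt9b and Abca8a again led and Wnt7a, a secreted Wnt ligand, took the sixth place. Centred over the 12 libraries, Asic2 ranked 2840 and Asic1 10782 of the 11642 genes, and Asic3 lay under the minimum of 5 CPM. All of these values share the same libraries and depth.

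**Figure D5:**
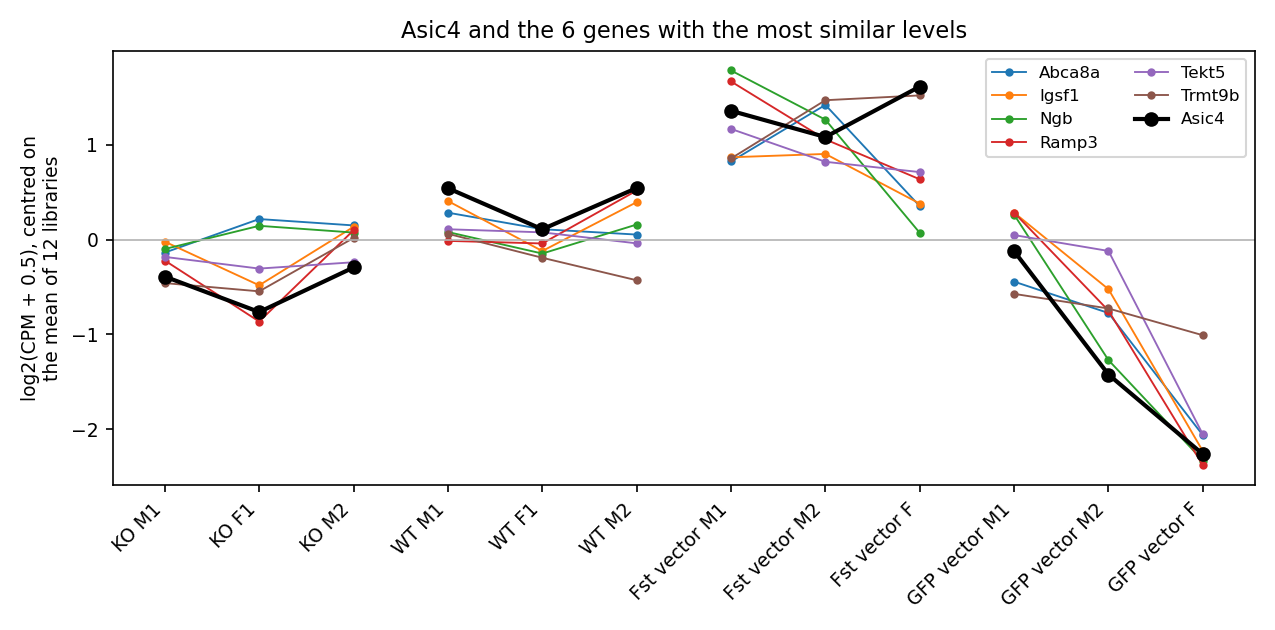
Log2(CPM + 0.5) of Asic4 (black) and of the 6 most like genes in each library, each centred on its mean over 12 libraries, with KO left of WT and Fst vector left of GFP vector. All 7 genes are highest in a Fst vector library and lowest in GFP vector F, and in Fst vector F Asic4 is high while Ngb is near its mean.

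Of the other DEG/ENaC genes, Asic5, the bile acid-sensitive relative, had at most 3 counts in any library, which is the floor used here, and was not tested. Scnn1a, the alpha subunit of the epithelial sodium channel, had 22.0 ± 1.32 CPM in KO and 24.0 ± 1.72 CPM in WT, and 17.3 ± 4.56 CPM with the Fst vector and 17.0 ± 8.37 CPM with the GFP vector (SD, n = 3 each). Its log2 changes of -0.11 ± 0.105 and -0.01 ± 0.407 did not pass (edgeR, adjusted p = 0.952 and 0.996). Scnn1b had 1 to 23 counts summed per group, and Scnn1g passed the filter on low counts in the vector table but not in the KO and WT table.

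Proteins known to bind or regulate acid-sensing channels showed no passing gene in either main comparison, with or without the replicate block. Of 25 such genes, 23 were tested. Between KO and WT 17 (73.9%) had a positive log2 change and 6 a negative one, beside 49.7% positive over all genes tested. Their median was 0.03, against -0.00085 over all genes tested. The smallest p was that of the kinase gene Prkca, at 182 ± 12.7 CPM in KO and 164 ± 7.85 CPM in WT, a log2 change of 0.17 ± 0.0592 (edgeR, adjusted p = 0.678). Between the vectors 7 (30.4%) were positive and 16 negative, beside 51.0% positive over all genes. The median was -0.07, against 0.01 over all genes. The smallest p there was that of the ubiquitin ligase Nedd4l, at 224 ± 16.4 CPM with the Fst vector and 301 ± 45.3 CPM with the GFP vector, a log2 change of -0.46 ± 0.144 (edgeR, adjusted p = 0.367). Pick1, the PDZ protein that binds Asic1 and Asic2 products, had 60.8 ± 3.65 CPM and 55.7 ± 2.98 CPM in the same order, with a log2 change of 0.09 ± 0.116 (edgeR, adjusted p = 0.852). Camk2a, the calcium-dependent kinase that acts on the Asic1 product, fell in GFP vector minus KO by 0.77 ± 0.13 on the log2 scale, at 3591 ± 793 CPM with the GFP vector and 6038 ± 451 CPM in KO (edgeR, adjusted p = 0.0141), and was the 1 of 23 to pass there, beside 3.58% of all genes. It passed in 9 of 12 fits that left out a library and not in males (edgeR, adjusted p = 0.168). Nor did any other gene named as passing in GFP vector minus KO pass in males (edgeR, adjusted p = 0.141 to 0.245). Of the neuropeptide precursors that modulate these channels, Pdyn had 32.3 ± 1.82 CPM with the Fst vector and 42.5 ± 7.53 CPM with the GFP vector (edgeR, adjusted p = 0.443), and Npvf had no counts in any library.

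Other proton sensors were likewise without a passing gene in the main comparisons, also with the replicate block. Between KO and WT 7 of 13 were tested, and between the vectors 8 of 13. The median log2 change was 0.02 and -0.14. Kcnk1, a potassium leak channel, rose in GFP vector minus KO by 0.61 ± 0.151 on the log2 scale, at 159 ± 39.2 CPM with the GFP vector and 102 ± 5.71 CPM in KO (edgeR, adjusted p = 0.0429). It was the 1 of 8 tested to pass there, beside 3.58% of all genes, and passed in 4 of 12 fits that left out a library.

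Among 28 genes of acid-base transport, 24 were tested in each main comparison and none passed, with or without the replicate block. Without it the median log2 changes were 0.03 for KO minus WT and -0.05 for Fst vector minus GFP vector. The carbonic anhydrase gene Car2 had 91.2 ± 1.74 CPM in KO and 82.9 ± 5.78 CPM in WT, and 117 ± 16.5 CPM with the Fst vector and 73.4 ± 22.1 CPM with the GFP vector. Its log2 changes were 0.16 ± 0.0663 and 0.64 ± 0.227, and neither passed (edgeR, adjusted p = 0.786 and 0.431). The carbonic anhydrase-related gene Car11 had a log2 change of 0.71 ± 0.256 between the vectors (edgeR, adjusted p = 0.435). The sodium-proton exchanger gene Slc9a2 fell in GFP vector minus KO by 0.95 ± 0.209 on the log2 scale, at 4.41 ± 1.01 CPM with the GFP vector and 8.40 ± 1.34 CPM in KO (edgeR, adjusted p = 0.0326), the 1 of 25 tested to pass there, beside 3.58% of all genes. It passed in 5 of 12 fits that left out a library. The sodium-proton exchanger gene Slc9a5 had 51.0 ± 2.73 CPM in KO and 60.7 ± 7.99 CPM in WT, a log2 change of -0.24 ± 0.0861 (edgeR, adjusted p = 0.706).

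In the activin pathway, which follistatin restrains, Fst was the only gene of 16 tested to pass between KO and WT and of 17 tested between the vectors, which is the manipulation itself. The receptor gene Acvr1c had 57.0 ± 3.08 CPM in KO and 43.0 ± 3.56 CPM in WT, a log2 change of 0.43 ± 0.0853 (edgeR, adjusted p = 0.0584). Skil, a SMAD corepressor induced by the pathway, had 33.9 ± 5.68 CPM with the Fst vector and 132 ± 66.1 CPM with the GFP vector, a log2 change of -1.998 ± 0.349 (edgeR, adjusted p = 0.158). The inhibitory SMAD gene Smad7 had 9.52 ± 1.86 CPM with the Fst vector and 18.2 ± 3.82 CPM with the GFP vector, a log2 change of -0.97 ± 0.224 (edgeR, adjusted p = 0.211). Pmepa1, another gene known as a target of the pathway, had 9.48 ± 1.49 CPM with the Fst vector and 71.9 ± 64.5 CPM with the GFP vector, a log2 change of -2.96 ± 0.696 (edgeR, adjusted p = 0.3). Between KO and WT, Skil had 96.5 ± 4.66 CPM in KO and 105 ± 3.1 CPM in WT, a log2 change of -0.10 ± 0.0609 (edgeR, adjusted p = 0.932), and Pmepa1 had 34.1 ± 3.75 CPM in KO and 27.4 ± 0.938 CPM in WT, a log2 change of 0.33 ± 0.0969 (adjusted p = 0.411). The replicate block between the vectors, with which 141 of the 15034 genes tested passed, had 4 of the 17 passing. They were Fst, Skil at -1.91 ± 0.203 (edgeR, adjusted p = 0.0118), Acvr1c at -1.85 ± 0.266 (adjusted p = 0.0475) and Inha, as given above. Acvr2a, an activin receptor, fell in GFP vector minus KO by 0.66 ± 0.134 on the log2 scale (edgeR, adjusted p = 0.025). It was the 1 of 17 tested to pass there, beside 3.58% of all genes, and passed in 7 of 12 fits that left out a library.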

How the data were processed

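Per the file headers, the authors deposited read counts that were not normalized, for KO and WT together and for the vector groups together, under Ensembl IDs. The submitters' processing notes name the build GRCm38. The aligner, counter, annotation and strand setting were not given in the sources used here. Both tables list 52636 genes, and 12 and 6 lines without a gene, which carried no counts, were left out. GENCODE M21 gave symbols and coordinates for 52489 IDs.

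KO was compared with WT, and Fst vector with GFP vector, within their own tables, and GFP vector with KO and female with male over 12 libraries. Each used the quasi-likelihood test of edgeR 4.0.16 under R 4.3.3, after TMM scaling and filterByExpr, with robust fitting and the Benjamini-Hochberg threshold of 0.05. Alternatives were DESeq2 1.42.0, other scalings, no filter, omission of each library, a replicate block, sex as a term, and 1 fit for all groups. Between the vectors, deviations of same-named libraries had correlations of 0.325 (M1), 0.138 (M2) and 0.39 (F), each over 0.1, and were taken as paired on this alone, since no label states it. GFP vector M1 also correlated with Fst vector M2, at 0.119, so this cut does not single out the same-named pairs. Same-named libraries also share the sex of their titles. The p-values of the block therefore rest on an assumed pairing.

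The rule for naming genes took the members, the 3 of smallest p and those passing in each list, neighbours of Asic4 within 100 kb, and the 6 genes most like it. Not all genes under this rule are named, in the lists and among the neighbours. Pick1, Asic5, Scnn1b, Npvf, Bdnf, Calb1, Arc, Inhba, Fos, Prox1, Pdgfra, Gad2, Lhx6, Adarb2 and Npy were added after their values were seen. A gene that this rule would name is not reported here. Members and lists were chosen with earlier results of these data known. The SE is the size of a log2 change over the square root of F. The floor of 3 counts equals 0.265 to 0.371 CPM and covers counting error only. No replicate pair agreed within sampling noise (chi-square per degree of freedom 2.39 to 31.5). On simulated data, changes of 1 on the log2 scale were recovered in 79 of 100 genes for KO minus WT and in 44 of 100 for Fst vector minus GFP vector, with 3.85% and 12.5% of calls false.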

Additional observations from a re-analysis of the deposited data

How the results depend on the processing

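For Asic1, Asic2 and Asic3, none of 149 values from alternative fits of the 3 comparisons of groups passed the threshold. Each fit gave up to 3 of these values, 1 per gene. The log2 change of Asic4 ran from -1.11 to -0.76 for KO minus WT and from 1.87 to 3.22 for Fst vector minus GFP vector, where the choice of the gene sets the direction, and from -1.41 to -0.21 for GFP vector minus KO. The cause of the shifts below was not tested.

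The log2 change of Asic2 in KO minus WT was 0.0128 without KO F1, 0.02511 without KO M2, 0.0034 without WT F1, 0.04398 in the libraries with less ribosomal RNA and 0.03259 in males, and that of Asic3 was -0.05793 without KO F1. With each library left out in turn they ran from -0.09464 to 0.02511 for Asic2 and from -0.05793 to 0.7375 for Asic3. In Fst vector minus GFP vector Asic2 was 0.2601 without GFP vector M1, 0.03347 without Fst vector F and 0.1548 in the libraries with less ribosomal RNA, and ran from -0.4238 to 0.2601 with a library left out. In GFP vector minus KO, Asic1 was -0.1142 without GFP vector F and -0.001666 in males, and Asic2 was 0.1035 and 0.07445, with ranges of -0.1142 to 0.2236 and -0.5785 to 0.1035 over the libraries left out. In female minus male, Asic3 was -0.3506 within the vector table. With no filter on low counts, Asic2 and Asic4 passed in female minus male, at -0.4052 and -0.383 (edgeR, adjusted p = 0.00213 and 0.0427), where 792 of 29564 genes passed.

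For KO minus WT, 4 genes passed, against 46 with no filter, 23 with the replicate block, 1 with all 12 libraries in 1 fit, 20 in the libraries with less ribosomal RNA, 30 with sex as a term, 8 in males, and 2 to 17 with a library left out. There, same-named libraries share the letter and number of their titles, with correlations of 0.0607 (M1), 0.13 (F1) and -0.0805 (M2), so only that of F1 is over 0.1. For Fst vector minus GFP vector, 12 passed, against 230 with no filter, 250 with DESeq2, 141 with the replicate block, 412 with all 12 libraries, 0 in the 3 libraries with less ribosomal RNA, 132 with sex, 27 in males, and 1 to 29 with a library left out. For GFP vector minus KO, 559 passed, against 1190 with no filter, 1237 with DESeq2, 11 in males, and 7 to 1831 with a library left out. For female minus male, 8 passed, against 792 with no filter, 42 with DESeq2, 67 and 15 within the KO and WT table and the vector table, and 7 to 10 with a library left out. The replicate block, used for KO minus WT and Fst vector minus GFP vector only, changed no call of Asic1, Asic2 or Asic3. Between KO and WT, Acvr1c at 0.43 (edgeR, adjusted p = 0.0172) and Reln of the interneuron and Cajal-Retzius lists at -0.37 (adjusted p = 0.0336) passed with it. Of genes at an unadjusted p under 0.05, 34.4% were higher when scaled by totals, against 49.5% with TMM, for KO minus WT, and 56.8%, against 45.7%, for the vectors. Over the longest transcript Asic1 averaged 9.32 and Asic2 17.8 RPKM. The divisions by ribosomal RNA and to males alone, the fits within a table and the longest transcript were chosen after seeing the data.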
